A study of Mus musculus with 24 samples.

Results

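The let-7 and miR-98 family is a set of microRNAs (miRNAs), short RNAs that silence messenger RNAs, whose members share the bases with which a miRNA finds its targets. Its 9 members were chosen by name from the table of miRNA counts: mmu-let-7a-5p, mmu-let-7b-5p, mmu-let-7c-5p, mmu-let-7d-5p, mmu-let-7e-5p, mmu-let-7f-5p, mmu-let-7g-5p, mmu-let-7i-5p and mmu-miR-98-5p, 9 of 1966 mature miRNAs listed. All 9 had counts in all 24 libraries and were among the 252 miRNAs with at least 10 CPM (counts scaled by the total of a library) in at least 12 libraries, on which the tests were run.

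The study sequenced small RNA from extracellular vesicles (EVs, particles that cells shed into blood) of mouse serum, to follow how a limb operation alters what circulating EVs carry. The mice were wild type C57BL/6 males of 14 to 16 weeks, with 6 mice and 1 library per mouse in each of 4 groups. S6h, S24h and S72h mice had an open fracture of the tibia, stabilized with a pin under isoflurane and buprenorphine, and were sampled 6, 24 and 72 h later, with daily analgesia in S24h and S72h. Control mice had no operation and received saline injections. EVs were precipitated with a kit, and each library was built from 2.3 ng of RNA. The Control libraries are those of the control mice assigned to S6h. The control mice assigned to S24h and S72h (C24-72h) were not analysed here. The mice that had surgery were allotted at random to the times of sampling, and control mice of the same batch were assigned to each set. The labels name no batch, and in S24h or S72h against Control the time after surgery, any animal batch, the analgesia and the anaesthesia cannot be told apart. The 3 comparisons with Control share the same 6 Control libraries and are therefore not independent of each other.

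Members of the let-7 family are abundant in differentiated cells and scarce in early embryos, where the protein Lin28 blocks their maturation. Their known targets include messenger RNAs of growth regulators such as Ras, Myc and Hmga2. In serum they are carried by EVs and by protein complexes and come from many tissues and blood cells, and let-7b outside cells has been described as a ligand of Toll-like receptor 7, a sensor of RNA. EVs in serum mix many sources, so that fewer cells or vesicles of a type and less of an RNA per cell or vesicle cannot be told apart.

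Total counts per library ran from 63956 to 263211 in Control (median 117578.5) and from 102568 to 471801 in S6h (median 177467.5). S24h libraries held 66652 to 143856 counts (median 75030.0) and S72h libraries 65017 to 245013 (median 94427.5). The rarest member in a library, mmu-let-7e-5p in Control replicate 4, had 44 counts, and the most abundant, mmu-let-7c-5p in S72h replicate 1, had 15389. Intervals given for shares of counts treat the reads as independent and cover their counting error alone. The methods describe no removal of PCR copies, which are not independent molecules, so that the intervals can be too narrow.

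Some libraries stood apart in their family counts. Control replicate 4 had the lowest Control levels of mmu-let-7a-5p (17119.7 CPM), mmu-let-7b-5p (12993 CPM) and mmu-let-7e-5p (328 CPM) and the highest level of mmu-let-7g-5p in any library (36035 CPM). S6h replicates 4 and 6 were low in mmu-let-7a-5p, with 12976 and 17529 CPM against at least 32140.5 CPM in the other S6h libraries. S72h replicate 6 was the lowest S72h library in mmu-let-7b-5p and mmu-let-7c-5p. S72h replicate 1 combined the highest mmu-let-7c-5p level of all libraries (62809 CPM) with the lowest mmu-let-7g-5p level (11179 CPM) and the lowest mmu-let-7i-5p level (7309.8 CPM). Each call of a member below that was lost or gained without 1 of these or of the other libraries is given with that library.

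The mature sequences are shown for all members because they differ from each other by few bases, which bears on how far their counts can be told apart. They were taken from RefSeq (GRCm38.p6), in which 1675 of the 1966 listed miRNAs and 9 of the 9 members had a mature sequence. Capitals mark the seed, bases 2 to 8 from the 5′ end, which is the same in all 9.
mmu-let-7a-5p: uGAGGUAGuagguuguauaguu
mmu-let-7b-5p: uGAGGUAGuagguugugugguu
mmu-let-7c-5p: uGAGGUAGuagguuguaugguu
mmu-let-7d-5p: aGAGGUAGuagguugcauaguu
mmu-let-7e-5p: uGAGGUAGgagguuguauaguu
mmu-let-7f-5p: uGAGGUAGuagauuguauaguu
mmu-let-7g-5p: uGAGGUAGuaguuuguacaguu
mmu-let-7i-5p: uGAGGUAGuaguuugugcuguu
mmu-miR-98-5p: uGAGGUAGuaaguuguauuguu

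All 9 sequences were 22 bases long. With positions counted from 1 at the 5′ end and the base of mmu-let-7a-5p written first, mmu-let-7c-5p differed from it by A19G, mmu-let-7e-5p by U9G and mmu-let-7f-5p by G12A, 1 base each. The other members had 2 to 4 substitutions: mmu-let-7b-5p A17G and A19G, mmu-let-7d-5p U1A and U16C, mmu-let-7g-5p G12U and U18C, mmu-miR-98-5p G11A and A19U, and mmu-let-7i-5p G12U, A17G, U18C and A19U. The pair mmu-let-7b-5p and mmu-let-7c-5p was also 1 base apart, G17A with the base of mmu-let-7b-5p first. The mismatch and multi-mapping settings of the authors' alignment are not given in the sources used here, and members that are 1 base apart, or that come from 2 hairpins (let-7a, let-7c and let-7f), could exchange or lose counts in ways these data do not show. Among the other listed miRNAs with a sequence, mmu-miR-1961 and mmu-let-7k had the same bases 2 to 8, and both had 0 counts over all libraries. Both sequences are shorter than the reads of miRNA length that the authors kept, so that these 0 counts set no limit on their levels. A further 2 shared bases 2 to 7 alone, mmu-let-7j with 18 counts and mmu-miR-202-3p with 4 counts over the 24 libraries.

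The members come from 12 hairpins in 8 places of the genome (GRCm38). On chromosome 13, on the minus strand, let-7d (chr13:48536012-48536114), let-7f-1 (chr13:48537829-48537917) and let-7a-1 (chr13:48538179-48538272) lie within an exon of a transcript of the long noncoding RNA gene 6720427I07Rik, with 1714 and 261 bases between them. On chromosome 15, let-7c-2 (chr15:85706603-85706697) and let-7b (chr15:85707319-85707403) lie 621 bases apart in exons of the noncoding gene Lncppara. The hairpin let-7c-1 (chr16:77599657-77599750) lies 656 bases after miR-99a in an intron of Mir99ahg, and let-7a-2 (chr9:41536716-41536811) lies between miR-100 and miR-125b-1. On chromosome 17, let-7e (chr17:17830352-17830444) has miR-99b 94 bases before it and miR-125a 367 bases after it, within Spaca6. On the X chromosome, let-7f-2 (chrX:151912346-151912428) and miR-98 (chrX:151913214-151913321) share an intron of Huwe1, 785 bases apart. The remaining hairpins stand alone, let-7g (chr9:106178840-106178927) in an intron of Wdr82 and let-7i (chr10:122985640-122985724) in an exon of the pseudogene transcript D630033A02Rik.

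By mean CPM over the 24 libraries, mmu-let-7a-5p ranked 4 among all miRNAs, mmu-let-7f-5p 6, mmu-let-7c-5p 8, mmu-let-7b-5p 10, mmu-let-7g-5p 13, mmu-let-7i-5p 16, mmu-let-7d-5p 22, mmu-let-7e-5p 63 and mmu-miR-98-5p 69. In Control the order of mean levels was mmu-let-7a-5p (39704.5 ± 13049 CPM, SD, n = 6), mmu-let-7f-5p (32069 ± 11737 CPM), mmu-let-7c-5p (27605 ± 3674 CPM), mmu-let-7b-5p (22668 ± 5283 CPM), mmu-let-7g-5p (22462 ± 6916 CPM), mmu-let-7i-5p (16849 ± 3906 CPM), mmu-let-7d-5p (10979.7 ± 3836 CPM), mmu-miR-98-5p (1635 ± 492 CPM) and mmu-let-7e-5p (1356 ± 659 CPM). Of the neighbours in this order, 2 pairs differed by more than the larger of their SDs, mmu-let-7i-5p from mmu-let-7d-5p and mmu-let-7d-5p from mmu-miR-98-5p, and the other 6 did not. In S6h the same 2 pairs differed beyond their spread. Within libraries, mmu-let-7a-5p lay above mmu-let-7f-5p in 6 of 6 libraries of Control, S24h and S72h and in 4 of 6 of S6h. In S24h and in S72h the largest step in CPM between neighbours lay elsewhere. The mean of mmu-let-7b-5p exceeded that of its neighbour mmu-let-7g-5p by 25297.5 CPM in S24h, more than the larger SD of 10583 CPM, and by 23669.6 CPM in S72h, more than 13594 CPM. In S24h mmu-let-7g-5p also exceeded mmu-let-7i-5p by 5222 CPM, more than 5161 CPM. The step from mmu-let-7d-5p to mmu-let-7e-5p was beyond the spread in S24h (13565 CPM against 2399 CPM) and in S72h (13203 against 6723 CPM). In these 2 groups mmu-let-7e-5p stood above mmu-miR-98-5p in the order, within their spread.

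Together the members held a larger part of the counts in S24h than in Control, in every library. In Control the summed share was 17.5% ± 3.21 (SD, n = 6), with a lowest library at 12.7%, a median of 17.9% and a highest at 22.2%. In S6h it was 17.6% ± 5.62 (SD, n = 6), from 10.3% over a median of 18.8% to 24.98%, a range that enclosed that of Control. In S24h it was 31.1% ± 4.15 (SD, n = 6), from 24.0% over a median of 31.4% to 36.7%. The lowest S24h library lay above the highest Control library and below the highest S6h library, so that S24h overlapped with S6h and not with Control. S72h was the widest group, 26.6% ± 7.37 (SD, n = 6), from 16.5% over a median of 27.9% to 35.0%. The lowest S72h library, replicate 6, held 16.5% (95% Wilson interval 16.3 to 16.7%), inside the Control range, and replicate 1 held 19.3% (19.2 to 19.5%). The mean share in S24h exceeded the mean share in Control on each scale tried: it was 27.99% against 17.5% of sizes scaled by TMM (the trimmed mean of M values, edgeR's default scaling), 30.7% against 17.3% of sizes scaled by RLE (the method of DESeq2), and 33.4% against 20.7% of totals without the erythroid miRNAs listed below. No test was made of the summed share, because the members were chosen with results of these data known.

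**Figure D1:**
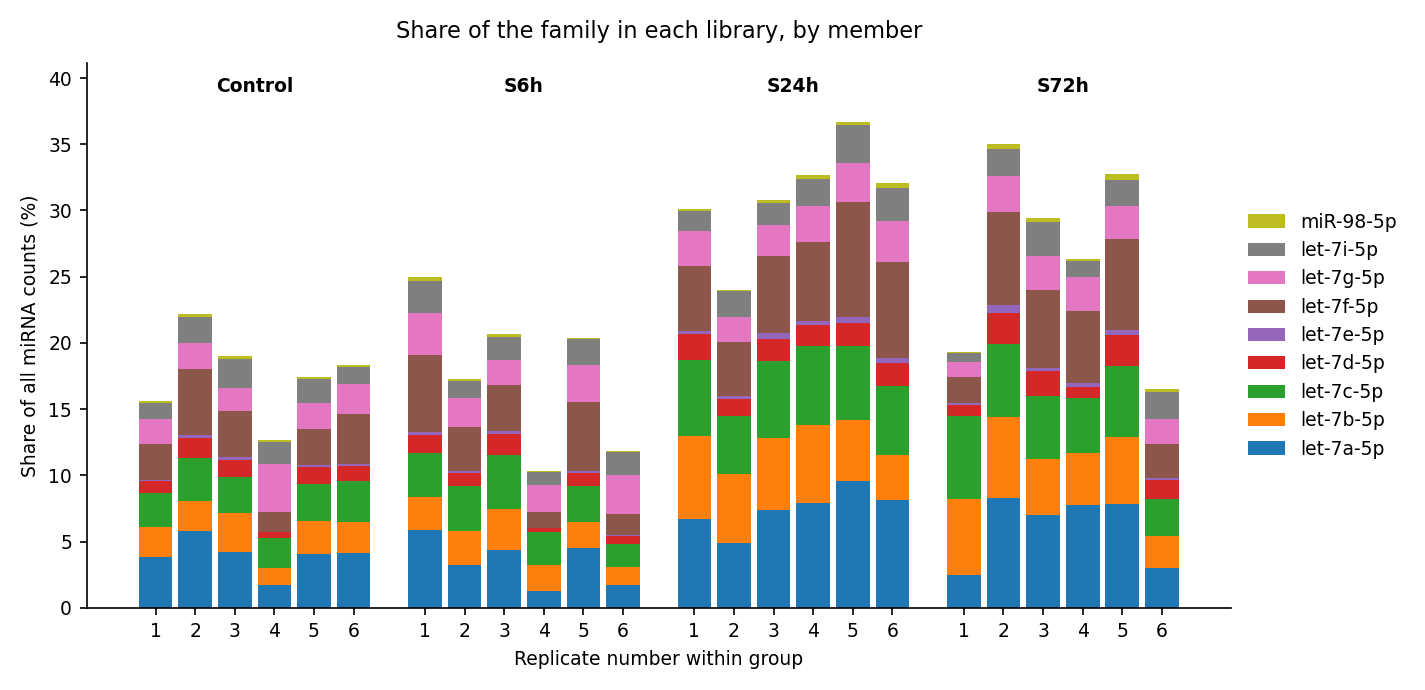
Share of all miRNA counts in each library (vertical axis, %) held by the 9 members, stacked by member, for the 6 replicates of each group. The stacks reach 12.7 to 22.2% in Control and 24.0 to 36.7% in S24h, and in S72h replicates 1 and 6 they reach 19.3 and 16.5%.

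The counts also held miRNAs listed here as markers of blood cells, liver and muscle, in shares that varied between libraries. Whether the listed miRNAs are particular to the cell type that names a list was not tested. A share, that of the platelet list included, is therefore no measure of those cells. The erythroid list (7 of 7 miRNAs in the table, among them mmu-miR-451a and mmu-miR-144-3p, with mmu-miR-486b-5p holding 49.8% of its counts) made up 15.4% ± 3.17 of the counts in Control, 11.8% ± 2.42 in S6h, 7.20% ± 3.92 in S24h and 8.74% ± 5.02 in S72h (SD, n = 6). Its lowest, median and highest shares were 11.3, 14.5 and 19.8% in Control, 8.02, 12.7 and 14.3% in S6h, 3.54, 6.77 and 13.0% in S24h, and 4.52, 6.84 and 17.7% in S72h. The highest erythroid share in S72h was that of replicate 6 (17.7%, 95% Wilson interval 17.5 to 18.0%), which had the lowest family share of its group. The platelet list (6 of 6 in the table, mmu-miR-21a-5p with 44.0% of its counts) ran from 9.76 over 13.4 to 16.9% in Control and from 12.7 over 16.7 to 18.1% in S24h. In S6h it ran from 9.77 over 12.9 to 15.7% and in S72h from 10.4 over 16.6 to 21.4%. The leukocyte list (6 of 6, mmu-miR-223-3p with 33.6%) held 0.603 over 1.17 to 1.34% in Control, 0.720 over 1.03 to 1.38% in S6h, 0.856 over 1.18 to 1.84% in S24h and 0.452 over 1.09 to 1.29% in S72h, again as lowest, median and highest share. The liver list (4 of 4, mmu-miR-122-5p with 90.9%) held 0.600 over 7.72 to 17.1% in Control, 0.465 over 1.60 to 3.17% in S6h, 0.890 over 1.99 to 5.98% in S24h and 0.57 over 1.23 to 30.9% in S72h, where the highest share was that of replicate 4 (30.9%, 95% Wilson interval 30.7 to 31.2%). Its Control shares fell apart, with 17.1, 16.3 and 14.0% in replicates 1, 4 and 6 and 0.600, 1.47 and 0.900% in replicates 2, 3 and 5. The skeletal muscle list (5 of 5, mmu-miR-1a-3p with 80.7%) held 3.42 over 5.33 to 9.02% in Control, 6.02 over 11.8 to 26.5% in S6h, 1.57 over 3.32 to 4.36% in S24h and 0.644 over 2.78 to 23.7% in S72h, where the highest share was that of replicate 1 (23.7%, 95% Wilson interval 23.6 to 23.9%). None of the markers on these 5 lists was at 0 over the 24 libraries. Their part in the family's levels was not tested. With the scaling computed without the erythroid list, mmu-let-7b-5p and mmu-let-7c-5p were called higher in S24h than in Control, as they were with it. In S72h against Control that scaling ended the call of mmu-let-7c-5p (adjusted p = 0.0589 by edgeR), whose log2 fold change was 0.89, beside 0.92 with the list. In S24h against S6h that scaling added a call of mmu-let-7c-5p (adjusted p = 0.0477 by edgeR), with a log2 fold change of 0.75 beside 0.67.

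The comparison of S24h with Control asks how the family stood 24 h after surgery. Levels of mmu-let-7b-5p were 12993, 23054 and 28880 CPM in the lowest, median and highest Control library and 33381, 53189 and 63297 CPM in S24h. All 6 S24h mice lay above all 6 Control mice, and the S24h mouse nearest to Control was replicate 6. On sizes scaled by TMM the lowest S24h library had 27528 CPM and the highest Control library 29034 CPM, so that the groups overlapped on that scale. The member passed the test: its log2 fold change was 1.04 ± 0.29 (SE), a fold change of 2.05, with adjusted p = 0.0149 by edgeR's quasi-likelihood test (Benjamini-Hochberg over the 252 tested miRNAs). A miRNA was called when its adjusted p was under 0.05 and its fold change at least 1.5. The call of mmu-let-7b-5p was kept under all 13 alternative settings and all 24 fits that left out 1 library, with an adjusted p of at most 0.0350.

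Levels of mmu-let-7c-5p, which differs from mmu-let-7b-5p by 1 base and has 1 of its 2 hairpins beside it on chromosome 15, were 22379, 27244 and 32679 CPM in the lowest, median and highest Control library. In S24h they were 44146, 56297 and 59503 CPM. All 6 S24h mice again lay above all 6 Control mice, and 5 of the S24h libraries fell between 52490.0 and 59503 CPM. Its log2 fold change was 0.83 ± 0.27 (SE), a fold change of 1.78, with adjusted p = 0.0329 by edgeR's quasi-likelihood test. This call was less firm than that of mmu-let-7b-5p: the adjusted p was 0.0672 without a filter on low counts. It was also lost without Control replicate 3 (adjusted p = 0.0527), replicate 5 (0.0666) or replicate 6 (0.0512), and without S24h replicate 1 (0.0559), replicate 3 (0.0600), replicate 4 (0.0690) or replicate 5 (0.0590), while the log2 fold change ran from 0.78 to 1.03 over all 24 fits.

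In S24h against Control edgeR called 10 of 252 miRNAs higher (3.97%) and 20 lower, and 2 of the 9 members higher. The split varied with the setting: it was 9 higher and 29 lower without a filter, 18 and 19 with RLE, 17 and 20 with library totals alone and 23 and 27 with DESeq2, and with upper quartile scaling it turned to 23 higher and 17 lower. The members called were mmu-let-7b-5p and mmu-let-7c-5p, the same 2 whose CPM did not overlap between S24h and Control, where 6 of the 252 (2.38%) lay above Control in every mouse. Further members with a large estimate did not pass. For mmu-let-7e-5p, the member with the lowest mean level in Control, 4 of 6 S24h mice lay above all Control mice, and the log2 fold change was 1.08 ± 0.41 (SE, adjusted p = 0.0662). It was called in 7 of the 13 settings, with adjusted p values down to 0.0162 with upper quartile scaling, and without S72h replicate 4 (0.0469). For mmu-let-7a-5p, 5 of 6 S24h mice lay above all Control mice (48604 to 95813 CPM against 17119.7 to 57805 CPM), and the log2 fold change was 0.77 ± 0.36 (SE, adjusted p = 0.147). It was called with upper quartile scaling (0.0430). For mmu-let-7f-5p, 1 base from mmu-let-7a-5p, 4 of 6 S24h mice lay above all Control mice (41341.5 to 86743 CPM against 15131 to 50097 CPM), and the log2 fold change was 0.80 ± 0.36 (SE, adjusted p = 0.129). It was called by DESeq2 and with upper quartile scaling, with a lowest adjusted p of 0.0398. In words, every S24h mouse had more mmu-let-7a-5p, mmu-let-7d-5p, mmu-let-7e-5p and mmu-let-7f-5p than the Control median, but at least 1 of them fell inside the Control range.

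The remaining 4 members had smaller estimates in S24h. For mmu-let-7d-5p the log2 fold change was 0.48 ± 0.30 (SE, adjusted p = 0.291), with 5 of 6 S24h mice above all Control mice. For mmu-miR-98-5p it was 0.34 ± 0.35 (SE, adjusted p = 0.570), with 4 of 6 S24h mice above all Control mice. Its S24h range (759 to 4025 CPM) enclosed the Control range (991 to 2252 CPM). For mmu-let-7i-5p the log2 fold change was 0.15 ± 0.26 (SE, adjusted p = 0.776), with S24h at 15067 to 28499 CPM and Control at 12139 to 21985 CPM. For mmu-let-7g-5p it was 0.03 ± 0.28 (SE, adjusted p = 0.961), with S24h at 18970.2 to 30600.0 CPM and Control at 17332 to 36035 CPM. No S24h mouse had more mmu-let-7g-5p than Control replicate 4. The estimate for mmu-let-7g-5p was 0.27 without that library, and it turned negative without Control replicate 2 (−0.02), 3 (−0.03) or 5 (−0.03) or S24h replicate 4 (−0.01) or 5 (−0.02). Whether the changes of these members differed from those of mmu-let-7b-5p and mmu-let-7c-5p was not tested.

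**Figure D2:**
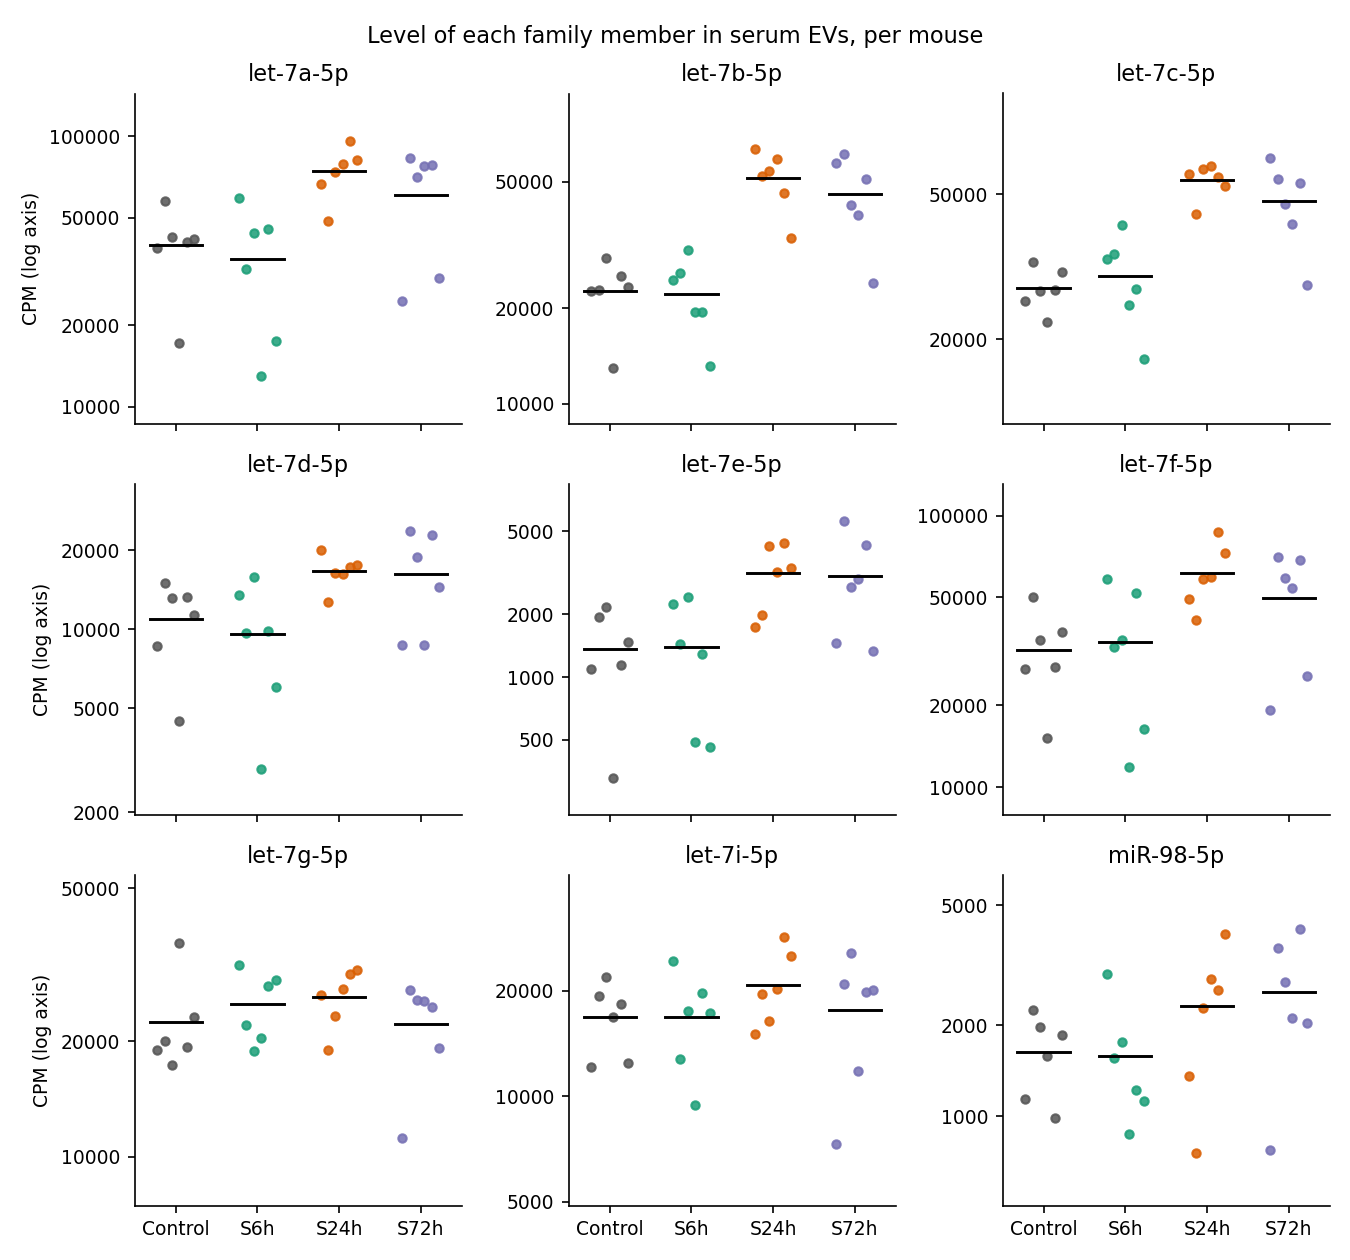
Level of each member in every mouse (vertical axis, CPM, log axis) by group, with 1 point per mouse and a bar at the mean of the 6 mice. For mmu-let-7b-5p the S24h points lie between 33381 and 63297 CPM and the Control points between 12993 and 28880 CPM, whereas for mmu-let-7g-5p S24h (18970.2 to 30600.0 CPM) lies inside the Control range (17332 to 36035 CPM).

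The median of all tested miRNAs was itself shifted in S24h against Control, by −0.21 on the log2 scale, and it ran from −0.28 with limma-voom to 0.08 with upper quartile scaling. With the scaling computed without the 9 members it was 0.01. Relative to it, mmu-let-7b-5p lay 1.25 higher (1.17 to 1.31 over the alternatives), mmu-let-7c-5p 1.04 higher (1.0 to 1.1) and mmu-let-7g-5p 0.24 higher (0.21 to 0.35). The median of the 9 members was 0.77, with a lowest value of 0.03 and a highest of 1.08, and relative to all miRNAs it lay 0.97 higher (0.91 to 1.08). All 9 estimates were positive and above the median of all miRNAs under TMM and under each of the 13 alternative settings, and in the fits that left out 1 library the sign turned for mmu-let-7g-5p alone.

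The comparison of S72h with Control addresses whether the difference was present 72 h after surgery. Levels of mmu-let-7b-5p in S72h were 24104, 46694 and 61132 CPM in the lowest, median and highest library. Of the 6 S72h mice, 5 lay above all Control mice, and replicate 6 lay among them. Its log2 fold change was 1.14 ± 0.29 (SE), a fold change of 2.20, with adjusted p = 0.0354 by edgeR's quasi-likelihood test. The call was lost with library totals alone (adjusted p = 0.0758), with the 2 groups fitted on their own (0.0941) and with replicate number as a block (0.0551). It was also lost without Control replicate 1 (0.0513), 2 (0.0623), 4 (0.0792), 5 (0.0697) or 6 (0.0560) and without S72h replicate 2 (0.0576) or 5 (0.0819), with log2 fold changes from 1.01 to 1.29 over all 24 such fits.

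Levels of mmu-let-7c-5p in S72h were 28102, 50305 and 62809 CPM in the lowest, median and highest library. Replicate 6 was again the library inside the Control range, with the other 5 above it. Its log2 fold change was 0.92 ± 0.27 (SE), a fold change of 1.89, with adjusted p = 0.0462 by edgeR's quasi-likelihood test. The call was lost with RLE scaling (0.0630), library totals alone (0.111), the scaling without the erythroid list (0.0589), no filter (0.135), the 2 groups on their own (0.126) and the replicate block (0.0741). It was lost without any of the 6 Control libraries, with adjusted p values of 0.0616, 0.0641, 0.0669, 0.0878, 0.108 and 0.0839 for replicates 1 to 6. Without S72h replicate 1, 2, 3, 4 or 5 they were 0.0686, 0.0708, 0.0668, 0.0846 and 0.0819. Leaving out libraries outside the 2 groups changed the call as well, with 0.0573, 0.0578 and 0.0569 without S6h replicates 1, 2 and 5 and 0.0573, 0.0578, 0.0544 and 0.0519 without S24h replicates 1, 3, 4 and 6.

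In S72h against Control edgeR called 5 of 252 miRNAs higher (1.98%) and 4 lower, and 2 of the 9 members were among the 5, mmu-let-7b-5p and mmu-let-7c-5p. The split was 13 higher and 8 lower with DESeq2, 15 and 2 with TMMwsp, 16 and 3 with upper quartile scaling, and it turned to more lower than higher with library totals alone (0 and 2), the scaling without the erythroid list (1 and 2), no filter (3 and 5) and the replicate block (0 and 1). The count of 9 depended on single libraries. It was 2 without Control replicate 1 or S72h replicate 2 or 3, 1 without Control replicate 2 or 5 or S72h replicate 5, and 14 without S72h replicate 1. It was 3 without Control replicate 4 or 6, S6h replicate 1, 2 or 5, or S24h replicate 1, 3 or 4, and 5 without S24h replicate 6. None of the 252 lay above Control in every mouse (0%), and no member did. The largest estimate belonged to mmu-let-7e-5p, with a log2 fold change of 1.28 ± 0.41 (SE, adjusted p = 0.0643) and 4 of 6 S72h mice above all Control mice. It was called in 4 of the 13 settings, with adjusted p values down to 0.0234, and without S72h replicate 1 (0.0486) or 6 (0.0410). For mmu-let-7a-5p and mmu-let-7f-5p the S72h mice fell into 4 high and 2 low libraries: replicates 1 and 6 had 24542 and 30000.7 CPM of mmu-let-7a-5p, against 70329.7 to 82975 CPM in the other 4. Their log2 fold changes were 0.75 and 0.73 (adjusted p = 0.252 and 0.254). The estimates were 0.60 for mmu-let-7d-5p (adjusted p = 0.260), 0.70 for mmu-miR-98-5p (0.270), 0.08 for mmu-let-7i-5p (0.924) and 0.07 for mmu-let-7g-5p (0.926). Relative to the median of all miRNAs, which was −0.06 (−0.15 to 0.12 over the alternatives), mmu-let-7b-5p lay 1.19 higher (1.08 to 1.27), mmu-let-7c-5p 0.97 higher (0.86 to 1.03) and the median of the members 0.79 higher (0.62 to 0.85). All 9 estimates were positive except that of mmu-let-7g-5p with library totals alone (−0.02) and without Control replicate 3 (−0.00093) or S72h replicate 4 (−0.11), and that of mmu-let-7i-5p without Control replicate 6 (−0.0012).

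At 6 h after surgery no member was called against Control. Levels of mmu-let-7b-5p in S6h were 13204, 22027 and 30481 CPM in the lowest, median and highest library, and those of mmu-let-7c-5p were 17648, 30429 and 41125 CPM. Both ranges overlapped with Control, and 3 S6h mice had more mmu-let-7c-5p than any Control mouse. The log2 fold changes were 0.02 ± 0.29 (SE) for mmu-let-7b-5p and 0.16 ± 0.26 (SE) for mmu-let-7c-5p, with adjusted p = 0.991 for both. The estimate for mmu-let-7b-5p was negative in 8 of the 13 settings (−0.07 to −0.01), among them DESeq2 and RLE, and without Control replicate 4 (−0.08), S6h replicate 2 (−0.03) or S6h replicate 3 (−0.06). Over the 9 members the estimates ran from −0.14 for mmu-let-7d-5p to 0.19 for mmu-let-7g-5p, with a median of 0.04 beside −0.02 for all 252 miRNAs. That median turned negative with DESeq2, RLE and no filter (−0.04 each), the scaling without the erythroid list (−0.01) and library totals alone (−0.00048), and with limma-voom it was 0.01 beside 0.13 for all miRNAs. The estimates for mmu-let-7a-5p (−0.14) and mmu-let-7d-5p turned positive without S6h replicate 4 (0.01 and 0.03), S24h replicate 6 (0.07 and 0.05) or S72h replicate 4 (0.07 and 0.05). By edgeR's quasi-likelihood test 0 of 252 miRNAs (0%) passed as higher and 0 as lower, with 9 at an unadjusted p under 0.05 and no member among these 9. DESeq2 and limma-voom also called 0, and 0% lay above Control in every mouse.

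**Figure D3:**
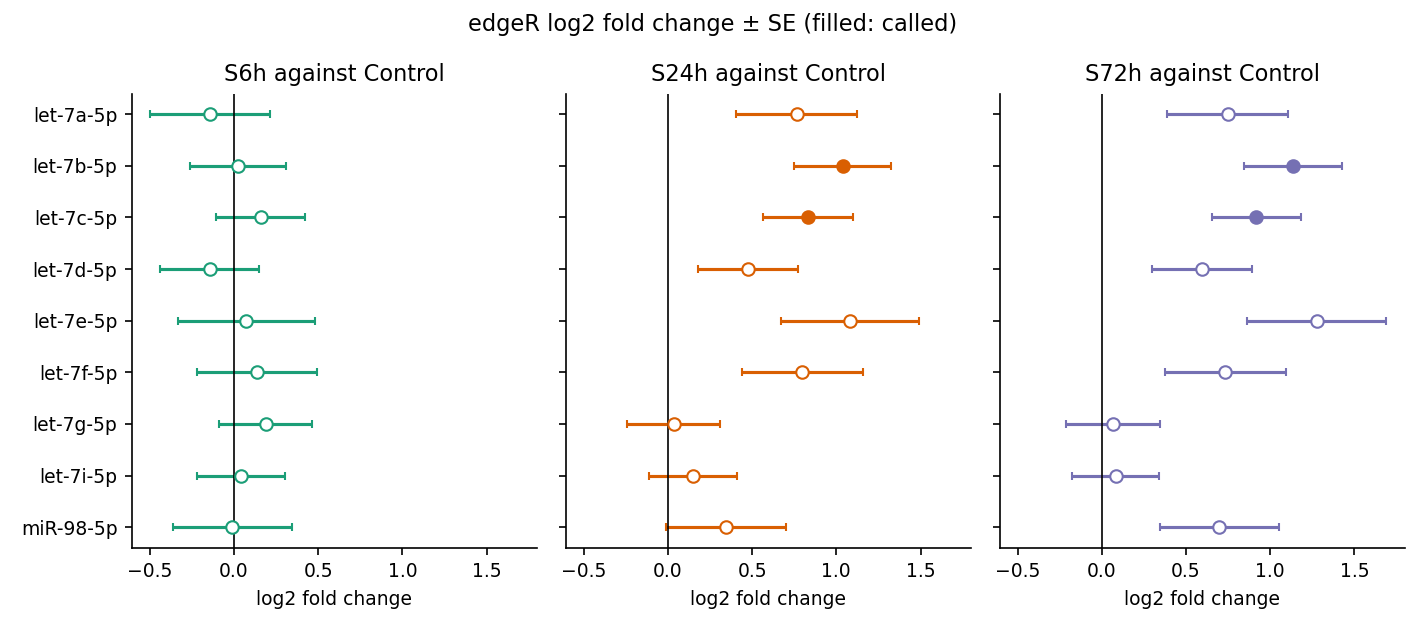
Log2 fold change (horizontal axis) of each member against Control in S6h, S24h and S72h from edgeR, with bars of 1 SE and filled points for called members. In S24h the estimates run from 0.03 for mmu-let-7g-5p to 1.08 for mmu-let-7e-5p, all positive under each of the 13 alternative settings, and mmu-let-7b-5p and mmu-let-7c-5p are called.

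The surgery groups were also compared with each other, without Control libraries in the contrast. The labels name no animal batch, so that the time after surgery and any batch cannot be told apart here either. In S24h or S72h against S6h the same holds for the daily analgesia, which was given in S24h and S72h. In S24h against S6h the mice did not overlap in mmu-let-7b-5p (33381 CPM or more against 30481 CPM or less) or in mmu-let-7c-5p (44146 CPM or more against 41125 CPM or less), where 12 of the 252 miRNAs (4.76%) lay above S6h in every mouse. On sizes scaled by TMM both overlapped: the lowest S24h library had 27528 CPM of mmu-let-7b-5p and the highest S6h library 29457 CPM, and for mmu-let-7c-5p these were 38599 and 39743 CPM. On sizes scaled by RLE mmu-let-7b-5p overlapped (29301 against 29473 CPM) and mmu-let-7c-5p did not. The member mmu-let-7b-5p was called, with a log2 fold change of 1.01 ± 0.29 (SE, adjusted p = 0.0121), and the call was kept under all 13 settings and all 24 fits without 1 library (adjusted p at most 0.0385). It was the 1 member of 9 called, where edgeR called 16 of 252 miRNAs (6.35%) higher and 35 lower, a total that was 32 without S6h replicate 4 or 6 or S24h replicate 3. The split was 27 higher and 30 lower with DESeq2, and it turned to 22 higher and 21 lower with RLE, 23 and 20 with upper quartile scaling and 19 and 18 with library totals alone. For mmu-let-7c-5p the log2 fold change was 0.67 ± 0.27 (SE, adjusted p = 0.0756), and it was called in 9 of the 13 settings, with adjusted p values down to 0.00353, and without S72h replicate 6 (0.0462). For mmu-let-7a-5p it was 0.91 ± 0.36 (SE, adjusted p = 0.0757), likewise called in 9 settings and without S6h replicate 1 (0.0420). For mmu-let-7e-5p it was 1.01 ± 0.41 (SE, adjusted p = 0.0825), called in 6 settings and without S6h replicate 3 (0.0460), and mmu-let-7d-5p (0.62 ± 0.30, SE, adjusted p = 0.155) was called in 4. The count of members called was thus 1 with TMM and edgeR and between 1 and 5 over the settings. The estimate for mmu-let-7g-5p was −0.15, and it was positive in 6 of the 13 settings. The median of the members was 0.66 beside −0.23 for all miRNAs, which ran from −0.43 with limma-voom to 0.10 with upper quartile scaling. Relative to it, mmu-let-7b-5p lay 1.25 higher (1.18 to 1.43).

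In S72h against S6h edgeR called 11 of 252 miRNAs (4.37%) higher and 14 lower, and 1 of 9 members was called, mmu-let-7b-5p. The split turned to more higher than lower in 8 of the 13 settings, among them DESeq2 (21 and 14), upper quartile scaling (19 and 10), the scaling without members (16 and 7) and a mean of 100 CPM or more (19 and 12). The total of 25 was 14 without S6h replicate 4, 16 without S6h replicate 6 and 13 without S72h replicate 5. For mmu-let-7b-5p the log2 fold change was 1.11 ± 0.29 (SE, adjusted p = 0.0120), with 5 of 6 S72h mice above all S6h mice, and the call was lost without S72h replicate 4 (0.0508). No member lay above S6h in every mouse, where 0.397% of all miRNAs did. The log2 fold change was 0.76 ± 0.27 (SE, adjusted p = 0.0628) for mmu-let-7c-5p, called in 5 of the 13 settings and without Control replicate 4 (0.0475), S6h replicate 3 (0.0380) or S72h replicate 6 (0.0180). For mmu-let-7e-5p it was 1.2 ± 0.41 (SE, adjusted p = 0.0537), called in 8 settings and without Control replicate 4 (0.0336), S6h replicate 1 (0.0480) or 3 (0.0271), or S72h replicate 1 (0.0410) or 6 (0.0284). It was 0.89 for mmu-let-7a-5p (adjusted p = 0.110), called in 2 settings and without S72h replicate 1 (0.0477) or 6 (0.0499), and 0.74 for mmu-let-7d-5p (adjusted p = 0.110), called in 4 and without S6h replicate 3 (0.0405). The estimates were 0.71 for mmu-miR-98-5p (adjusted p = 0.240) and 0.60 for mmu-let-7f-5p (0.367). That of mmu-let-7i-5p was 0.04 (0.957) and turned negative without S6h replicate 2 (−0.03) or 4 (−0.06), S24h replicate 6 (−0.05) or S72h replicate 3 (−0.02) or 4 (−0.10). That of mmu-let-7g-5p was −0.12 (0.927) and turned positive with upper quartile scaling (0.05) and the scaling without members (0.04). The median of the members was 0.74 beside 0.04 for all miRNAs, which ran from −0.07 with limma-voom to 0.20 with upper quartile scaling, and relative to it the members' median lay 0.70 higher (0.68 to 0.77).

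Between S72h and S24h no member was called. The estimates ran from −0.07 for mmu-let-7i-5p to 0.35 for mmu-miR-98-5p, with a median of 0.08 beside 0.09 for all miRNAs. That median turned negative with DESeq2 and RLE (−0.07 each), upper quartile scaling (−0.06), library totals alone (−0.19), limma-voom (−0.0032) and a mean of 100 CPM or more (−0.00092), and with limma-voom it lay 0.27 below that of all miRNAs. edgeR called 1 of 252 miRNAs (0.397%) higher and 0 lower, with 29 at an unadjusted p under 0.05 and no member among them, and DESeq2 and limma-voom called 4 and 0 miRNAs and no member. That count was 2 without S6h replicate 1 or 3 or S24h replicate 6, 3 without S72h replicate 1, and 5 without S24h replicate 2 or S72h replicate 2 or 5. The log2 fold change of mmu-let-7b-5p was 0.10 ± 0.29 (SE, adjusted p = 0.986), with CPM of 24104 to 61132 in S72h and 33381 to 63297 in S24h. The estimate was negative with DESeq2, RLE, upper quartile scaling and library totals alone (−0.16 at the lowest) and without S24h replicate 6 (−0.08), S72h replicate 1 (−0.03) or S72h replicate 4 (−0.06). In CPM of library totals, 2 of 6 S72h mice lay above the S24h median of mmu-let-7b-5p and none above the highest S24h mouse. On sizes scaled by TMM, S72h replicates 1 and 4 (71183 and 65389 CPM) lay above the highest S24h library (58180 CPM). The TMM factors of these 2 libraries, 0.807 and 0.599, were the lowest of any library, which raises their levels on that scale.

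The make-up of the family's counts varied between groups as well. The pair mmu-let-7g-5p and mmu-let-7i-5p, which share G12U and U18C against mmu-let-7a-5p, held 23.5% ± 9.0 of the members' counts in Control, 25.2% ± 7.72 in S6h, 15.1% ± 1.66 in S24h and 15.4% ± 4.83 in S72h (SD, n = 6). In Control the pair held 17.7, 20.3 and 41.7% in the lowest, median and highest library, and in S24h 12.9, 15.2 and 17.4%. All S24h libraries therefore lay below all Control libraries, by a narrow margin, and S72h (9.56 to 23.8%) overlapped with Control. The highest Control share was that of replicate 4. The members mmu-let-7a-5p, mmu-let-7b-5p, mmu-let-7c-5p and mmu-let-7f-5p together held 68.7% ± 7.74 in Control, 67.9% ± 6.85 in S6h, 77.8% ± 1.65 in S24h and 76.5% ± 6.54 in S72h (SD, n = 6). Such shares do not depend on the scaling of the libraries. They show unequal levels within the family and were not tested.

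Across the 24 libraries the closest pair of members was mmu-let-7a-5p and mmu-let-7f-5p, whose log2(CPM + 4), centred over the libraries, differed by a root mean square of 0.17. The next were mmu-let-7b-5p and mmu-let-7c-5p (0.26), then mmu-let-7a-5p and mmu-let-7d-5p (0.40) and mmu-let-7g-5p and mmu-let-7i-5p (0.40), and the least alike were mmu-let-7e-5p and mmu-let-7g-5p (1.07). The first 2 pairs are 1 base apart and have neighbouring hairpins, so that shared reads and shared transcripts cannot be told apart. Other pairs 1 base apart differed by 0.54 (mmu-let-7a-5p and mmu-let-7c-5p) and 0.43 (mmu-let-7a-5p and mmu-let-7e-5p), and other pairs with neighbouring hairpins by 0.42 (mmu-let-7d-5p and mmu-let-7f-5p) and 0.54 (mmu-let-7f-5p and mmu-miR-98-5p). Among 157 other miRNAs averaging 100 CPM or more, those closest to the summed members were mmu-miR-26a-5p (0.32), mmu-miR-26b-5p (0.32), mmu-miR-151-5p (0.38), mmu-miR-103-3p (0.39) and mmu-miR-186-5p (0.43), against a median of 1.17 for all 157. A miRNA with the same level in every library would differ from the summed members by 0.505. The members themselves differed from their sum by 0.27 (mmu-let-7c-5p) to 0.58 (mmu-let-7e-5p), with mmu-let-7g-5p at 0.54 and mmu-miR-98-5p at 0.52. Mean levels of mmu-miR-26a-5p were 13152 CPM in Control, 14938 CPM in S6h, 29515.5 CPM in S24h and 26376.5 CPM in S72h. Against Control, edgeR called mmu-miR-26a-5p, mmu-miR-26b-5p and mmu-miR-151-5p higher in S24h (10 of 252 called higher). In S72h it called mmu-miR-26a-5p and mmu-miR-186-5p (5 of 252). Against S6h it called mmu-miR-151-5p higher in S24h (16 of 252) and mmu-miR-186-5p in S72h (11 of 252). The call of mmu-miR-26a-5p in S24h was kept under all 13 settings and lost in 2 fits without 1 library. Every other of these calls was lost in at least 1 setting.

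Most other arms of the let-7 hairpins were too rare to test. Of 12 listed, 2 passed the filter, mmu-let-7d-3p with 13452 counts over the 24 libraries and mmu-let-7a-1-3p with 136. The sequence of mmu-let-7a-1-3p is the same as that of mmu-let-7c-2-3p (46 counts), so that its counts and the ratios built on them cannot be assigned to the let-7a-1 hairpin. The arms mmu-let-7a-2-3p, mmu-let-7f-2-3p and mmu-let-7g-3p had 0 counts over the 24 libraries, which allows up to 0.893 CPM each. The arm mmu-let-7d-3p was the abundant one, with 4109 ± 1857 CPM in Control, 4460.3 ± 1497 CPM in S6h, 3929 ± 632 CPM in S24h and 2649 ± 994 CPM in S72h (SD, n = 6). Per count of mmu-let-7d-3p there were 3.24 ± 1.71 counts of mmu-let-7d-5p in Control, with 0.617, 3.26 and 5.77 in the lowest, median and highest library, and 6.34 ± 2.28 in S72h, with 4.10, 5.88 and 9.61. In S6h the ratio was 3.0 ± 3.19 and in S24h 4.37 ± 1.04 (SD, n = 6). The Control library with a ratio under 1 was replicate 4, and S72h overlapped with the upper part of Control. On the log2 scale the S72h ratio exceeded that of Control by 1.15 (exact two-sided permutation test over all assignments, p = 0.0195, adjusted p = 0.117 over 6 tests, n = 6 per group), which did not pass. Without Control replicate 3 the difference was 1.37 and passed (exact permutation test, adjusted p = 0.0130), and without Control replicate 4 it was 0.73 and did not pass. The differences were −0.41 in S6h (adjusted p = 0.694) and 0.66 in S24h (adjusted p = 0.437) by the same exact permutation test, and without S6h replicate 4 the first turned to 0.0066. The second was 0.24 without Control replicate 4 and at most 0.88 without another library. The arm mmu-let-7a-1-3p had 0 counts in 10 of the 24 libraries, 4 of them in S24h and 2 in each other group, and there the ratio is set by the pseudocount and the depth. For mmu-let-7a-5p against mmu-let-7a-1-3p the differences were −0.72, 0.96 and −0.05 in S6h, S24h and S72h, with adjusted p values of 0.694, 0.437 and 0.95 by the exact permutation test. In S6h the difference ran from −1.2 to −0.12 without 1 library, and in S24h from 0.68 to 1.46, with 0.63 at a pseudocount of 4. That of S72h turned positive with a pseudocount of 4 counts (0.08) and without Control replicate 1 (0.16), 4 (0.05) or 5 (0.29) or S72h replicate 1 (0.33) or 2 (0.22).

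The miR-99, miR-100 and miR-125 miRNAs, which share transcripts with let-7a-2, let-7c-1 and let-7e, had estimates of both signs. Of 11 listed, 8 were tested, and none was called against Control in any surgery group by edgeR, DESeq2 or limma-voom, with 1 at an unadjusted p under 0.05 by edgeR (mmu-miR-125a-5p in S72h). In S24h against Control 3 of the 8 estimates were positive and 5 negative, with a median of −0.21, the value of all 252 miRNAs, beside 0.77 for the members. The neighbours of let-7e had log2 fold changes of 0.23 ± 0.28 (mmu-miR-99b-5p) and −0.34 ± 0.29 (mmu-miR-125a-5p, SE), beside 1.08 for mmu-let-7e-5p. Those of let-7c-1 and let-7a-2 had −0.52 ± 0.40 (mmu-miR-99a-5p), −0.62 ± 0.44 (mmu-miR-100-5p) and −0.61 ± 0.33 (mmu-miR-125b-5p, SE), and mmu-miR-125b-2-3p, an arm of a hairpin in the transcript of let-7c-1, had 0.78 ± 0.98 (SE), the highest of the 8. In S72h against Control the lowest estimate was that of mmu-miR-125a-5p (−0.78 ± 0.29, SE, adjusted p = 0.138), and in S6h against Control the estimates ran from −0.49 to 0.47.

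Against S6h, edgeR called 35 of 252 miRNAs lower in S24h and 14 of 252 in S72h. Of the 8 tested miR-99, miR-100 and miR-125 miRNAs, 1 was called against S6h in each of the later groups, both lower. In S24h it was mmu-miR-125b-5p, with a log2 fold change of −1.0 ± 0.33 (SE, adjusted p = 0.0324). That call was lost in 8 of the 13 settings, among them DESeq2 (0.0988), and without S6h replicate 4 (0.124) or 6 (0.0608) or S24h replicate 1 (0.0517), 4 (0.0699), 5 (0.0637) or 6 (0.0774). In S72h it was mmu-miR-125a-5p, with a log2 fold change of −0.96 ± 0.29 (SE, adjusted p = 0.0283). That call was lost in 6 of the 13 settings and without S6h replicate 2 (0.0562), 4 (0.108) or 5 (0.0564) or S72h replicate 2 (0.0518), 3 (0.0651), 5 (0.0699) or 6 (0.0628). Whether the members and these neighbours differed in their changes was not tested.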

How the data were processed

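The libraries hold small RNA of serum EVs from 24 mice, 6 per group (Control, S6h, S24h, S72h). The deposited values are raw counts per mature miRNA, which the authors obtained with cutadapt, Bowtie on GRCm38, selection of reads of miRNA length and featureCounts on miRBase. Library totals were 63956 to 471801 counts. Where no count was seen, up to 3 counts are possible, or 46.9 CPM in the smallest library.

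The members and lists were chosen with earlier results of these data known. The named miRNAs are the members, their other arms, miRNAs with the same seed, the miR-99, miR-100 and miR-125 miRNAs of let-7 transcripts, and the 5 others closest to the summed members. Levels are CPM of library totals. The 252 of 1966 miRNAs with 10 CPM or more in 12 or more libraries were fitted in 1 model of 4 groups with edgeR 4.0.16 (TMM, quasi-likelihood test) in R 4.3.3, with Benjamini-Hochberg adjustment within each comparison. Calls needed a fold change of 1.5 or more beside an adjusted p below 0.05. The SE is the size of the log2 fold change divided by the square root of F. The model was tested on simulated data. The exact two-sided permutation tests of arm ratios were run in Python 3.11.15 with a pseudocount of 1. Marker lists were erythroid, platelet, leukocyte, liver and skeletal muscle.

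The 13 alternatives were DESeq2 1.42.0, limma-voom (limma 3.58.1), RLE, TMMwsp (TMM with singleton pairing), upper quartile, library totals alone, scaling without the 9 members or without the erythroid list, no filter, a mean of 100 CPM or more, the 2 groups alone, adjusted p alone and the replicate block. The setting of adjusted p alone is the same fit without the fold threshold, so that it cannot lose a call. Each library was also left out in turn, with the 252 miRNAs kept. These fits include those without a library outside the 2 groups compared, which enters a comparison only through the shared scaling and spread.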

Additional observations from a re-analysis of the deposited data

Results flagged for a closer look

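Of 40 groups of 6 libraries checked (9 members and their summed share in 4 groups), 1 held a library far from the others. The level of mmu-let-7g-5p in Control replicate 4 was 36035 CPM, with the next highest Control library at 23129.9 CPM. Chance gives such a library in about 1 in 20 groups.

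The change of mmu-let-7b-5p against Control differed between times after surgery in edgeR's test of the difference itself. Its log2 fold change was higher by 1.01 in S24h than in S6h (adjusted p = 0.0121 by edgeR's quasi-likelihood test, 6 of 6 S24h mice above all S6h mice in CPM of library totals, with an overlap on sizes scaled by TMM or RLE). It was higher by 1.11 in S72h than in S6h (adjusted p = 0.0120 by the same edgeR test, 5 of 6 S72h mice above all S6h mice), and without S72h replicate 4 the adjusted p was 0.0508. The labels name no animal batch, and the time after surgery, any batch and the daily analgesia of S24h and S72h cannot be told apart.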

How the results depend on the processing

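Each of 70 results was recomputed under the alternatives, which gave 2122 values. Of these 1837 kept their direction and their side of the threshold or moved within the spread or, for counts, by at most 1.5 times, 43 fell below the threshold, 79 passed it, 56 changed sign, and 107 counts or levels moved further. The calls of mmu-let-7b-5p in S24h against Control (log2 fold changes of 0.98 to 1.36 over the 13 settings) and against S6h (0.99 to 1.30) were kept in all 13 settings and all 24 fits without 1 library. The cause of the changes listed here was not tested.

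The count of members called in S24h against Control, 2, was 4 with DESeq2, 5 with upper quartile scaling, 1 without a filter, and 3 with RLE, TMMwsp, library totals alone, a mean of 100 CPM or more or the 2 groups alone. In S72h against Control the count of 2 was 3 with DESeq2, TMMwsp, upper quartile scaling or a mean of 100 CPM or more, 1 with RLE, the scaling without the erythroid list or no filter, and 0 with library totals alone or the 2 groups alone. In S24h against S6h the count of 1 was 5 with DESeq2, limma-voom, upper quartile scaling or a mean of 100 CPM or more, where 27, 22, 23 and 23 of all miRNAs were called higher, beside 16 with TMM. It was 4 with RLE or the 2 groups alone, 3 with library totals alone or the scaling without members, and 2 with the scaling without the erythroid list or no filter. In S72h against S6h the count of 1 was 5 with DESeq2, 4 with limma-voom, upper quartile scaling or a mean of 100 CPM or more, 3 with the scaling without members, and 2 with RLE, TMMwsp or no filter. Over the 13 settings all miRNAs called higher numbered 9 to 23 in S24h and 0 to 16 in S72h against Control, and 12 to 27 in S24h and 10 to 21 in S72h against S6h.

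Over all tested miRNAs, whose number differs without a filter and with a mean of 100 CPM or more, the counts that moved by over 1.5 times are given here. The count of 0 called in S6h against Control was 2 without a filter. The 30 in S24h against Control were 50 with DESeq2 and 47 with limma-voom. The 9 in S72h against Control were 21 with DESeq2, 17 with TMMwsp, 19 with upper quartile scaling, 18 with a mean of 100 CPM or more, 2 with library totals alone, 3 with the scaling without the erythroid list and 0 with the 2 groups alone. The 1 in S72h against S24h was 4 with DESeq2, 10 without a filter, and 0 with limma-voom or the 2 groups alone. The 25 in S72h against S6h were 38 with limma-voom.

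The log2 fold change of mmu-let-7c-5p in S24h against Control was 0.85 without a filter, no longer called. In S72h against Control that of mmu-let-7b-5p was 1.02 with library totals alone and 1.2 with the 2 groups alone, neither called. That of mmu-let-7c-5p was 0.92 with RLE, 0.80 with library totals alone, 0.89 without the erythroid list, 0.91 without a filter and 0.97 with the 2 groups alone, none called. Against S6h mmu-let-7c-5p was called in S24h with DESeq2 (0.89), limma-voom (0.69), RLE (0.89), upper quartile scaling (0.97), library totals alone (0.87), the scaling without members (0.90) or without the erythroid list (0.75), a mean of 100 CPM or more (0.86) and the 2 groups alone (0.67). In S72h it was called with DESeq2 (0.83), limma-voom (0.70), upper quartile scaling (0.91), the scaling without members (0.93) and a mean of 100 CPM or more (0.86).

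Signs turned for small estimates. That of mmu-let-7b-5p in S6h against Control (0.023) was −0.035 with DESeq2 or RLE, −0.043 with the scaling without members, −0.032 with library totals alone, −0.025 without the erythroid list, −0.065 without a filter and −0.012 with a mean of 100 CPM or more. In S72h against S24h it was −0.046 with DESeq2 or RLE, −0.029 with upper quartile scaling and −0.16 with library totals alone, and that of mmu-let-7c-5p was −0.065 with DESeq2 or RLE, −0.060 with upper quartile scaling, −0.19 with library totals alone and −0.00092 with a mean of 100 CPM or more. For mmu-let-7g-5p the estimate was −0.017 in S72h against Control with library totals alone. In S24h against S6h it was 0.092 with DESeq2, 0.091 with RLE, 0.087 with the scaling without members, 0.15 with upper quartile scaling, 0.064 with library totals alone and 0.027 with a mean of 100 CPM or more. In S72h against S6h it was 0.045 with upper quartile scaling and 0.044 with the scaling without members. The log2 ratio of mmu-let-7a-5p to mmu-let-7a-1-3p in S72h against Control was 0.080 with a pseudocount of 4.

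With replicate number as a block, the members called in S72h numbered 0 against Control, with log2 fold changes of 1.055 for mmu-let-7b-5p and 0.85 for mmu-let-7c-5p, and 2 against S6h. With the block, all miRNAs called in S72h numbered 1 against Control and 30 against S6h, 12 higher and 18 lower. The estimate of mmu-let-7b-5p in S6h against Control was −0.027. The replicate numbers mark different mice, and the labels give no pairing. Over the 252 miRNAs, which are not independent replicates, deviations from the group means in libraries with the same number correlated at −0.254 to 0.148. These values do not show whether libraries with the same number were handled together.

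Without 1 library at a time, the members called numbered 1 to 3 in S24h and 0 to 3 in S72h against Control, and 1 to 2 in S24h and 0 to 4 in S72h against S6h. All miRNAs called numbered 20 to 42 in S24h and 1 to 14 in S72h against Control. They numbered 32 to 53 in S24h against S6h, 1 to 5 in S72h against S24h and 13 to 35 in S72h against S6h. The log2 fold change of mmu-let-7b-5p ran from −0.077 to 0.20 in S6h and from 1.01 to 1.29 in S72h against Control, from −0.078 to 0.25 in S72h against S24h and from 0.93 to 1.26 in S72h against S6h. That of mmu-let-7c-5p ran from 0.78 to 1.03 in S24h and from 0.77 to 1.05 in S72h against Control, from 0.57 to 0.76 in S24h against S6h, from −0.072 to 0.22 in S72h against S24h and from 0.57 to 0.89 in S72h against S6h. For mmu-let-7g-5p it ran from −0.033 to 0.27 in S24h and from −0.11 to 0.30 in S72h against Control. For mmu-let-7i-5p it ran from −0.0012 to 0.22 in S72h against Control, from −0.014 to 0.22 in S24h against S6h and from −0.10 to 0.17 in S72h against S6h. The log2 ratio of mmu-let-7a-5p to mmu-let-7a-1-3p ran from −0.40 to 0.33 in S72h, and that of mmu-let-7d-5p to mmu-let-7d-3p from −0.85 to 0.0066 in S6h and from 0.73 to 1.37 in S72h against Control.

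Depth limits the rare arms most, since 1 count in the smallest library is 15.6 CPM, above the filter. The member with the fewest counts in a library, mmu-let-7e-5p, had 44 there. With 6 mice per group, estimates that did not pass are not shown to be without change.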
